A study of Mus musculus with 4 samples.

Results

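The genes described here are the lysosomal proteases and their companions on a mouse array: 8 cathepsins (Ctsa, Ctsb, Ctsc, Ctsd, Ctsh, Ctsk, Ctsl and Ctsz), the protease inhibitor gene Cst3 and the lysosomal membrane gene Lamp1. They were chosen by name, as every probe set whose annotation gives a single gene symbol from these 10. All 10 genes were on the array, with 16 of its 12488 probe sets, and 14 of the 16 passed a filter on low signal that kept 6208 probe sets. RNA came from soleus, a slow-twitch calf muscle, of female mice aged 6 months, pooled from 5 animals per genotype. The HSL-null mice lack hormone-sensitive lipase, the enzyme encoded by Lipe that cleaves stored acylglycerols and cholesteryl esters, and the wildtype mice have it. The labels call each array a technical duplicate of pooled muscle. On this reading each genotype is 1 biological sample with 2 arrays, and no p-value was computed. The labels do not name the allele, the strain or the cells in which the lipase was lost.

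Lysosomes are acidic compartments in which proteins delivered by endocytosis and autophagy are broken down. Most cathepsins are cysteine proteases of the papain family, Ctsd is an aspartic protease and Ctsa a serine carboxypeptidase, and all are made as inactive precursors that mature in the lysosome. In skeletal muscle this route works beside the proteasome and is known for its part in protein turnover and in the loss of muscle mass. Many lysosomal genes are known targets of the transcription factor Tfeb, which binds E-boxes with the core CACGTG near their start sites.

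The arrays carried the signal of slow muscle and of the lost gene. All 8 slow muscle markers lay above the filter with summed intensities of 36340 to 37909 on the HSL-null arrays and 34842 to 36953 on the wildtype arrays, and the 5 general muscle markers on the array with 11707 to 12210 and 11433 to 11618. The brightest were Tnnt1, slow troponin T (0.048 ± 0.062 on the log2 scale, HSL-null minus wildtype), and Myh7, the slow myosin heavy chain (0.024 ± 0.068), among slow markers, and Acta1, skeletal alpha-actin (0.083 ± 0.020), and Mb, myoglobin (0.039 ± 0.051), among general ones. Lipe measured 16.2 and 19.4 on the HSL-null arrays, against 71.4 and 70.2 on the wildtype arrays. Across the 6208 probe sets, which are not independent replicates, log2 intensities of the HSL-null duplicates correlated at r = 0.988 and those of the wildtype duplicates at 0.987, against 0.983 to 0.986 between genotypes. The 3′ to 5′ signal ratio of the beta-actin control, a sign of RNA quality, was 0.816 and 0.823 on the HSL-null arrays and 0.688 and 0.706 on the wildtype arrays, while that of Gapdh was 0.922 and 0.912 against 0.955 and 0.927. These ratios stand beside every difference below, and their part in it was not tested.

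Promoter stretches are shown for the 4 members whose windows hold the E-box: a membrane protein, an aspartic protease, a serine carboxypeptidase and a cysteine protease. A table of RefSeq windows (build GRCm38.p6, 250 bases before to 50 after each start) matched 8 of the 10 members with 9 windows, and Ctsb and Ctsh were not matched. CACGTG, which reads the same on both strands, was found in 4 of the 9 windows, belonging to Lamp1, Ctsd, Ctsa and Ctsl, and in 7.15% of all 32851 windows. The longer form TCACGTG, searched on both strands and overlapping the same sites, was found in 3 of the 9 windows (Lamp1, Ctsd and Ctsa) and in 3.77% of all. The stretches below are written 5′ to 3′ on the gene's strand, with the E-boxes in capitals. Positions are counted from 1 at the annotated start that each window surrounds, with -1 just before it.
Lamp1: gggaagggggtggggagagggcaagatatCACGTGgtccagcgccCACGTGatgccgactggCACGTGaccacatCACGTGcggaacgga
Ctsd: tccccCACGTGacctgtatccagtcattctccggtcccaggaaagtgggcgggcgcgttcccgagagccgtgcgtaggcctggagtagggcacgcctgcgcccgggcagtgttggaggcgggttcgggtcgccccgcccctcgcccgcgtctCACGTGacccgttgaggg
Ctsa: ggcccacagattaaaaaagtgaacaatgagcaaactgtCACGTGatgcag
Ctsl: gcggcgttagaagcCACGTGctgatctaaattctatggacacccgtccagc

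The Lamp1 stretch is chr8:13159071-13159160 on the plus strand, positions -90 to -1, with E-boxes that begin at -61, -45, -28 and -15. Only 8 of the 32851 windows held 4 or more E-boxes. The Ctsd stretch is chr7:142387908-142388077 on the minus strand, positions -250 to -81, with E-boxes at -245 and -98. The Ctsa stretch is chr2:164833723-164833772 on the plus strand, positions -50 to -1, with an E-box at -12, and the same window holds another at 6. Ctsa also has a window further upstream, chr2:164832622-164832921, which holds no E-box. The printed Ctsa stretch lies downstream of that window. The Ctsl stretch is chr13:64370720-64370770 on the minus strand, positions -250 to -200, with its single E-box at -236. Such a match describes these letters only, and the array does not measure binding.

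Signal from the lysosomal protease genes was close to the same in both pools. Here a probe set counts as separated when each of the 4 array pairs (HSL-null over wildtype) points the same way and by 1.5-fold or more, and as not overlapping when the pairs point the same way by any amount. None of the 14 member probe sets above the filter was separated, against 0.451% of the 6208 probe sets (28). Arrays that did not overlap in the lower direction were found for 3 of the 14, against 21.1% of all probe sets, and in the higher direction for 2 of the 14, against 19.5% of all. The members' shares, 21.4% lower and 14.3% higher, were near this background, and the other 9 member probe sets overlapped. With each array centred on its median the backgrounds were 27.8% lower and 13.4% higher. The members' counts were then 3 lower and 0 higher of the 14. With an array left out only 2 pairs remain to point the same way, and 35.3% to 36.5% of all 6208 probe sets were then lower and 32.8% to 35.4% higher without overlap. The members' count lower was then 5 without HSL-null array 2, 7 without wildtype array 1 and 5 without wildtype array 2, and the count higher 4 without HSL-null array 1, 4 without wildtype array 1 and 6 without wildtype array 2.

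The median log2 difference, HSL-null minus wildtype, was -0.0079 over the 14 member probe sets and -0.0022 over all 6208. The mean over the 14 was -0.028, and with a single probe set per gene the median was 0.0039 over the 10 genes, so that the sign of the median depends on how genes with several probe sets are counted. The differences ran from -0.42 to 0.20, with 6 above 0 and 8 below. In size, 13 of the 14 (92.9%) lay under 0.2, against 76.7% of all probe sets. The median size was 0.066 between the genotypes, beside 0.087 between the HSL-null duplicates and 0.098 between the wildtype duplicates of the same probe sets. The genotype value compares means of 2 arrays, and the duplicate values compare single arrays, which vary more than means. These sizes thus cannot show whether the genotypes lay closer than the duplicates. The same order of the sizes held over all 6208 probe sets. A mean difference larger than both duplicate differences was found for 3 of the 14 (21.4%), namely Ctsd and a pair of Ctsb probe sets, against 28.6% of all probe sets. In a whole muscle, fewer cells of a type and less RNA per cell cannot be told apart.

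**Figure D1:**
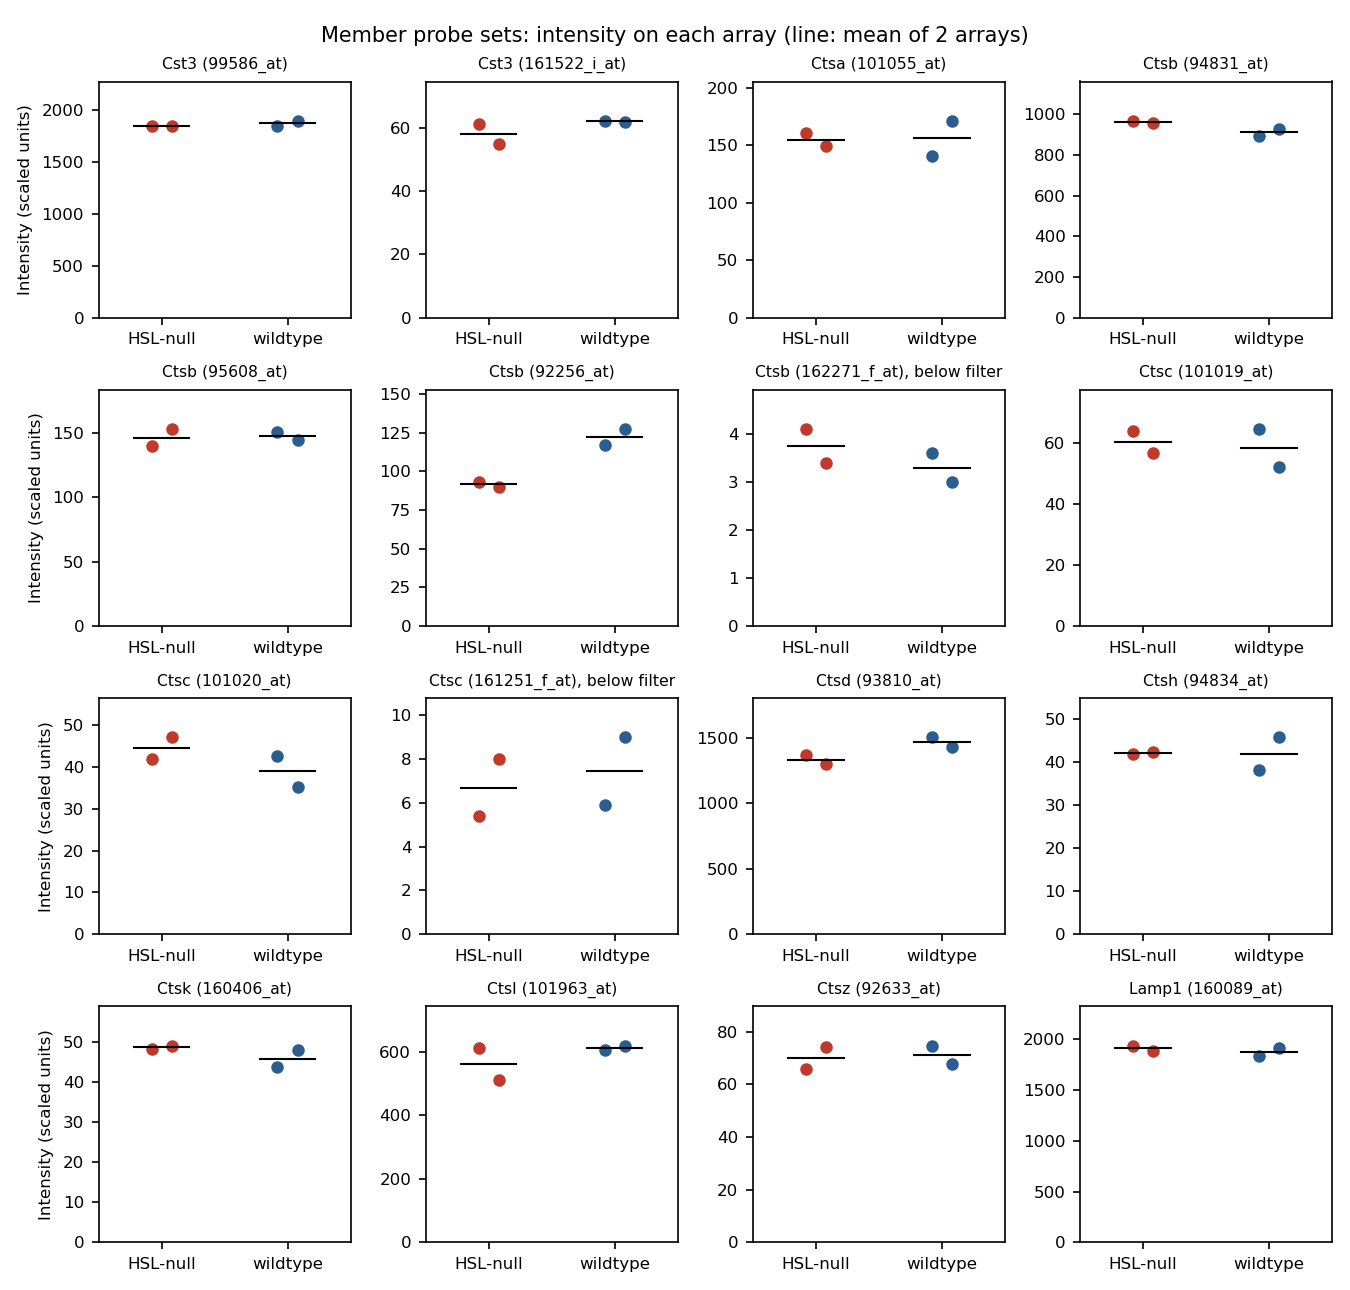
Intensity in the authors' scaled units of each of the 16 member probe sets on the 2 HSL-null arrays (red) and the 2 wildtype arrays (blue), with a line at each mean and every axis starting at 0. Ctsd and Ctsb probe set 92256_at lie lower on both HSL-null arrays, and most other panels overlap.

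Ctsd, the aspartic protease that is a major endopeptidase of lysosomes, had lower HSL-null signal on every array pair of its only probe set. Agreement between probe sets could thus not be checked for Ctsd. It measured 1368 and 1301 on the HSL-null arrays, against 1506 and 1429 on the wildtype arrays. Both HSL-null arrays lay below both wildtype arrays. The means were 1334 ± 46.8 in HSL-null and 1467 ± 54.6 in wildtype (SD, n = 2 arrays each), a log2 difference of -0.14 ± 0.052 (SE from the duplicates), and the array pairs lay between 1.04-fold and 1.16-fold lower. The arrays did not overlap under any of the 3 other scalings, and with an array left out the difference ran from -0.17 to -0.099.

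Ctsb, a cysteine protease with both endopeptidase and peptidyl-dipeptidase activity, was measured by 4 probe sets that did not go together. Probe set 94831_at, the brightest of them, measured 968.6 and 956.2 on the HSL-null arrays, against 892.1 and 930.8 on the wildtype arrays. The HSL-null arrays were higher without overlap, by 0.079 ± 0.032 on the log2 scale, and overlapped with wildtype once the arrays were centred on their medians (0.043). Without wildtype array 1 the difference was 0.048. Probe set 92256_at measured 93.1 and 90.2 on the HSL-null arrays, against 117.2 and 127.4 on the wildtype arrays. This is the widest gap among the members: the means were 91.7 ± 2.05 in HSL-null and 122 ± 7.21 in wildtype (SD, n = 2 arrays each), a log2 difference of -0.42 ± 0.064, and the array pairs lay between 1.26-fold and 1.41-fold lower. The arrays of 92256_at did not overlap under any of the 3 other scalings.

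The remaining Ctsb probe sets showed no gap. Probe set 95608_at measured 139.4 and 152.9 on the HSL-null arrays, against 150.3 and 144.3 on the wildtype arrays, so that the genotypes overlapped (-0.013 ± 0.073). Probe set 162271_f_at, with a suffix for probes that can be shared among related sequences, measured 4.1 and 3.4 on the HSL-null arrays, against 3.6 and 3.0 on the wildtype arrays. All 4 of its values lay under the floor of 5.7, the 25th percentile of the table, and it has no difference here. Ctsb thus has probe sets that do not overlap in opposite directions, 0.49 apart on the log2 scale. Of the 76 genes with at least 3 probe sets above the filter, 8 (10.5%) spanned as much or more, and 8 (10.5%) had non-overlapping arrays in both directions. No direction is given for the gene.

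**Figure D2:**
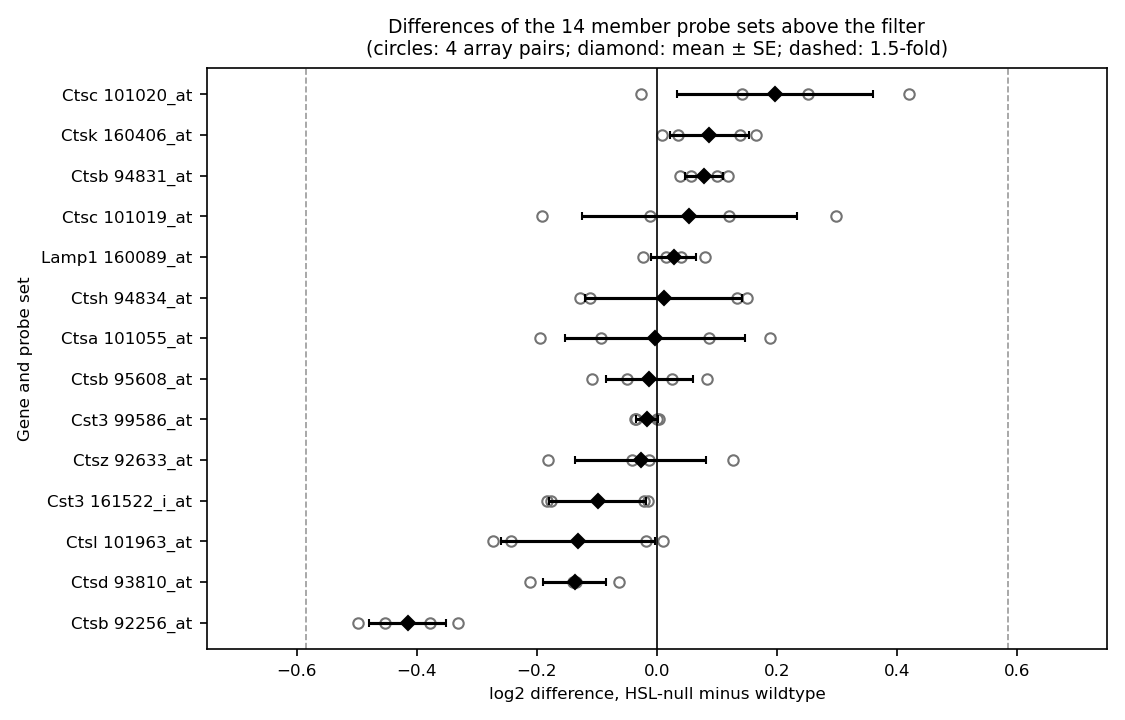
Log2 difference, HSL-null minus wildtype, of the 14 member probe sets above the filter, with circles for the 4 array pairs, a diamond for the mean, bars for the SE from the duplicates and dashed lines at 1.5-fold. Ctsb 92256_at lies furthest from 0 at -0.42, no mean reaches the dashed lines, and circles fall on both sides of 0 for 9 probe sets.

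The other cysteine endopeptidases gave small differences. Ctsl, a broad endopeptidase known for its higher transcript levels in wasting muscle, measured 611.4 and 512.4 on the HSL-null arrays, against 606.8 and 619.4 on the wildtype arrays. HSL-null array 1 lay between the wildtype arrays and HSL-null array 2 below them, so that the difference of -0.13 ± 0.13 rests on a single array. Without HSL-null array 2 it was -0.0039, and without HSL-null array 1 it was -0.26. After quantile normalization the Ctsl arrays were lower in HSL-null without overlap (-0.12). Ctsk, a collagen-degrading protease best known from osteoclasts, measured 48.1 and 49.0 on the HSL-null arrays, against 43.7 and 47.8 on the wildtype arrays. The arrays did not overlap, but the closest pair was 1.01-fold apart (0.087 ± 0.066), and they overlapped under each of the 3 other scalings. The difference was 0.022 without wildtype array 1 and 0.15 without wildtype array 2.

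Markers of other cells known to make Ctsk were examined beside it. The array held 3 of the osteoclast markers, of which 0 passed the filter, with summed intensities of 20.2 to 34.6 in HSL-null and 23.6 to 36.1 in wildtype, and Itgb3 lay under the floor on all arrays. The brighter Acp5, an acid phosphatase, measured 16 and 27.1 on the HSL-null arrays, against 28.4 and 20.8 on the wildtype arrays, and Calcr, the calcitonin receptor, at most 6.3 on any array. Of the fibroblast and matrix markers, all 8 above the filter were higher in HSL-null without overlap, against 19.7% of all genes with 1 probe set each, with a median log2 difference of 0.35. Their summed intensity was 4067 to 4202 in HSL-null and 3553 to 3578 in wildtype. With median centring or quantile normalization 7 of the 8 did not overlap, where 13.4% and 20.1% of all probe sets were higher. Dcn, the proteoglycan decorin, differed by 0.079 ± 0.020 and Col1a1, a chain of type I collagen, by 0.48 ± 0.050. Their part in the Ctsk values was not tested.

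Ctsc, Ctsh, Ctsz and Ctsa, which remove residues from the ends of peptides, overlapped between the genotypes on every probe set. Ctsc, or dipeptidyl peptidase I, which activates serine proteases of immune cell granules, measured 64.1 and 56.6 on the HSL-null arrays, against 64.6 and 52.1 on the wildtype arrays, with probe set 101019_at (0.054 ± 0.18). Its probe set 101020_at measured 41.9 and 47.1 on the HSL-null arrays, against 42.7 and 35.2 on the wildtype arrays (0.20 ± 0.16). This highest mean difference among the members was 0.34 without wildtype array 1 and 0.057 without wildtype array 2. It was 0.11 without HSL-null array 2. Probe set 161251_f_at measured 5.4 and 8.0 on the HSL-null arrays, against 5.9 and 9.0 on the wildtype arrays, close to the floor and below the filter.

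Ctsh, an aminopeptidase, measured 41.9 and 42.4 on the HSL-null arrays, against 38.2 and 45.8 on the wildtype arrays, and both HSL-null values lay between the wildtype ones (0.011 ± 0.13). Ctsz, a carboxypeptidase, measured 65.9 and 74.0 on the HSL-null arrays, against 74.7 and 67.8 on the wildtype arrays (-0.027 ± 0.11). The arrays of Ctsz interleaved. Ctsa, the serine carboxypeptidase that also protects neuraminidase and beta-galactosidase in the lysosome, measured 160.5 and 149.6 on the HSL-null arrays, against 140.8 and 171.3 on the wildtype arrays. Both HSL-null values lay inside the wildtype range, and the difference was -0.0032 ± 0.15.

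Macrophages are rich in Ctsc, Ctsh and Ctsz, and their markers were examined beside these genes. Of the 14 macrophage markers on the array, 9 lay above the filter, with a median log2 difference of -0.075. Of the 9, 1 was higher without overlap and 0 lower, against 19.7% and 21.5% of all genes with 1 probe set each. The summed intensity of the 14 was 812 to 817 in HSL-null and 789 to 831 in wildtype, which overlap, and Aif1 lay under the floor on all arrays. C1qc, a chain of complement C1q, differed by 0.036 ± 0.21 and Lyz2, the macrophage lysozyme, by -0.075 ± 0.059. None of these markers was at 0 on any array.

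Cst3, or cystatin C, the secreted inhibitor of cysteine cathepsins, had nearly the same signal in both pools with the values as deposited. Probe set 99586_at measured 1847 and 1845 on the HSL-null arrays, against 1844 and 1892 on the wildtype arrays. No pair of arrays differed by more than 1.03-fold, and the means of 1846 ± 1.63 in HSL-null and 1868 ± 34.2 in wildtype (SD, n = 2 arrays each) gave a log2 difference of -0.017 ± 0.019. For 99586_at the difference was -0.053 with median centring, still with overlap, and -0.066 after quantile normalization, where it was lower without overlap. The dimmer probe set 161522_i_at measured 61.3 and 54.8 on the HSL-null arrays, against 62.2 and 61.9 on the wildtype arrays. Its arrays did not overlap, with the closest pair 1.01-fold apart (-0.098 ± 0.081), and they overlapped after cyclic loess. The difference was -0.18 without HSL-null array 1 and -0.018 without HSL-null array 2.

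Lamp1, a heavily glycosylated protein of the lysosomal membrane whose E-box cluster is printed above, also overlapped. It measured 1934 and 1883 on the HSL-null arrays, against 1831 and 1913 on the wildtype arrays. The means were 1909 ± 36.4 in HSL-null and 1872 ± 58.5 in wildtype (SD, n = 2 arrays each), a log2 difference of 0.028 ± 0.037 that was -0.019 after quantile normalization. No array pair of Lamp1 differed by more than 1.06-fold. Of the 4 genes with an E-box in a window, Ctsd alone did not overlap with the values as deposited. Over all genes with 1 probe set each, 21.5% were lower and 19.7% higher without overlap. Whether the genes with an E-box differ from the other members was not tested. Ctsd and Ctsl lay below 0 under each scaling, while the signs of Lamp1 and Ctsa depended on it. Median centring put all 4 below 0 (Lamp1 -0.0079, Ctsa -0.039). It also moved the median of all 6208 probe sets to -0.038.

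**Figure D3:**
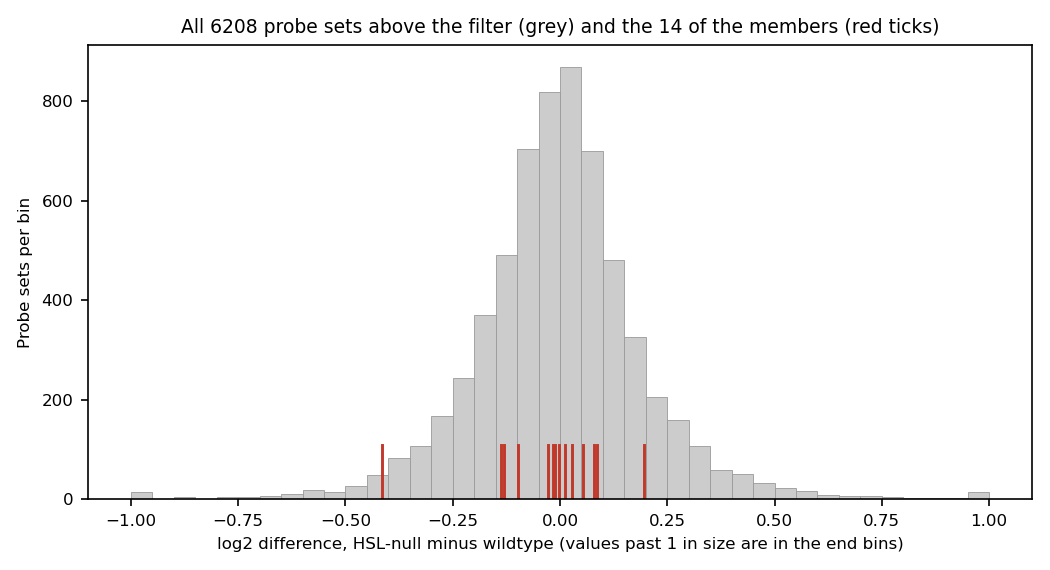
Histogram of the log2 difference, HSL-null minus wildtype, over the 6208 probe sets above the filter, in probe sets per bin, with the 14 member probe sets as red ticks. All ticks but those of Ctsb 92256_at (-0.42) lie within 0.2 of 0.

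Other genes of the lysosome were described by lists, each gene by its brightest probe set, with 4851 genes as background, of which 19.7% were higher and 21.5% lower without overlap and 0.454% separated. None of the lysosomal lists had a separated gene. Of 7 other lysosomal proteases above the filter, 3 were higher without overlap and 0 lower, with a median of 0.14 that was 0.080 without wildtype array 1. Tpp1, a tripeptidyl peptidase, measured 251.1 and 236.2 on the HSL-null arrays, against 244.7 and 276.3 on the wildtype arrays (-0.094 ± 0.098). Lgmn, the asparaginyl endopeptidase that processes cathepsin precursors, measured 216.3 and 206.4 on the HSL-null arrays, against 172.0 and 196.5 on the wildtype arrays (0.20 ± 0.10), without overlap. Ctss, a cathepsin of antigen-presenting cells that is also a macrophage marker here and was picked for its values, overlapped at 0.18 ± 0.18. Of the cystatin family and like inhibitors 2 lay above the filter, Cstb at 0.039 ± 0.19 and Serpinb6a at 0.0045 ± 0.071, and both overlapped.

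The hydrolases other than proteases were spread around 0, as the cathepsins were. Of 13 glycosidases, sulfatases and lipid hydrolases above the filter, 2 were higher and 3 lower without overlap, against 19.7% and 21.5% of all genes. Their median was -0.013. The median was 0.022 without HSL-null array 1 and -0.052 without HSL-null array 2. With an array left out, the counts ran from 3 to 7 lower and 3 to 6 higher. The shares over all probe sets were then 35.3% to 36.5% lower and 32.8% to 35.4% higher. Smpd1, the acid sphingomyelinase, differed by -0.037 ± 0.12 and Psap, the precursor of the saposins, by 0.046 ± 0.074. Among genes chosen after their values were seen, Gm2a, the activator of ganglioside breakdown, measured 57.6 and 67.3 on the HSL-null arrays, against 85.1 and 82.5 on the wildtype arrays (-0.43 ± 0.11), and Gusb, the beta-glucuronidase, was also lower without overlap (-0.21 ± 0.072). In the other direction, Gaa, the acid alpha-glucosidase that breaks down glycogen in muscle lysosomes, measured 520.5 and 532.3 on the HSL-null arrays, against 474.4 and 487.1 on the wildtype arrays (0.13 ± 0.025). Lipa, the acid lipase that cleaves cholesteryl esters and triglycerides in the lysosome, was below the filter at 15.3 and 15.1 on the HSL-null arrays, against 11.5 and 14.2 on the wildtype arrays.

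Among genes of the lysosomal membrane and its proton pump, 7 of 11 and 10 of 13 lay below 0, by small amounts. Of all 6208 probe sets 3134 lay below 0, and the median over the 4851 genes was -0.0041. Of 13 subunits of the V-ATPase, the pump that acidifies lysosomes, 8 were lower and 2 higher without overlap, with a median of -0.11. The shares over all genes were 21.5% lower and 19.7% higher. The 8 were the same number under quantile normalization and cyclic loess, where the shares over all probe sets were 20.7% and 20.4% lower. With median centring 9 were lower, where the share over all probe sets was 27.8%. Without HSL-null array 2 the median was -0.069. Atp6v1g1 measured 745.2 and 669.5 on the HSL-null arrays, against 758.8 and 793.9 on the wildtype arrays (-0.14 ± 0.084), and Atp6v1d overlapped at 0.041 ± 0.058. Atp6v0a1, chosen after its values were seen, went the other way, with 59.5 and 59.9 on the HSL-null arrays and 47.3 and 47.2 on the wildtype arrays (0.34 ± 0.0051). Of 11 other lysosomal membrane genes, 6 were lower and 2 higher without overlap, against the same shares over all genes, with a median of -0.11. Cd63, a tetraspanin, measured 739.8 and 721.1 on the HSL-null arrays, against 872.6 and 825.8 on the wildtype arrays (-0.22 ± 0.044), and Laptm4a overlapped at -0.017 ± 0.14. Lamp2, the close relative of Lamp1 and chosen after its values were seen, differed by -0.19 without overlap. Whether the members differ from these lists was not tested.

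Genes that sort enzymes to the lysosome and genes of autophagy were examined next. Of 13 sorting genes, 5 were lower and 0 higher without overlap, against 21.5% and 19.7% of all genes. Their median was -0.092, and -0.028 without HSL-null array 1. With an array left out, the counts ran from 6 to 8 lower and 1 to 3 higher. The shares over all probe sets were then 35.3% to 36.5% lower and 32.8% to 35.4% higher. Rab7, the GTPase of late endosomes, measured 337.4 and 322.6 on the HSL-null arrays, against 429.5 and 376.3 on the wildtype arrays (-0.29 ± 0.10), and Igf2r, a mannose 6-phosphate receptor, overlapped at -0.15 ± 0.15. Of 15 autophagy genes and regulators, 5 were lower and 2 higher without overlap, against the same shares of all genes, with a median of -0.032. The median was -0.0059 without HSL-null array 2. With an array left out, the counts ran from 5 to 8 lower and 4 to 5 higher, beside the same raised shares over all probe sets. Gabarap, an autophagosome protein, overlapped at -0.058 ± 0.072, and Sqstm1, the cargo receptor p62, was lower without overlap at -0.084 ± 0.055. Tfeb, known to bind E-boxes of this kind, was picked for its values and measured 56.1 and 47.1 on the HSL-null arrays, against 46.4 and 38.0 on the wildtype arrays (0.29 ± 0.19). Of the 5 white adipocyte markers above the filter, 4 were lower in HSL-null without overlap, against 21.5% of all genes, and 2 of them were separated. Lipe (-2.00 ± 0.13) encodes the lipase that defines the genotypes, so its lower signal says nothing about adipocytes here. Adipoq (-1.06 ± 0.033) was the other separated marker. Cebpa (-0.35 ± 0.092) and Fabp4 (-0.18 ± 0.11) were lower without overlap, and Lep (-0.10 ± 0.21) overlapped. The summed intensity of the 7 on the array, Lipe included, was 424.5 to 424.8 in HSL-null and 612 to 627 in wildtype. The part of these markers in the lysosomal values was not tested.

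**Figure D4:**
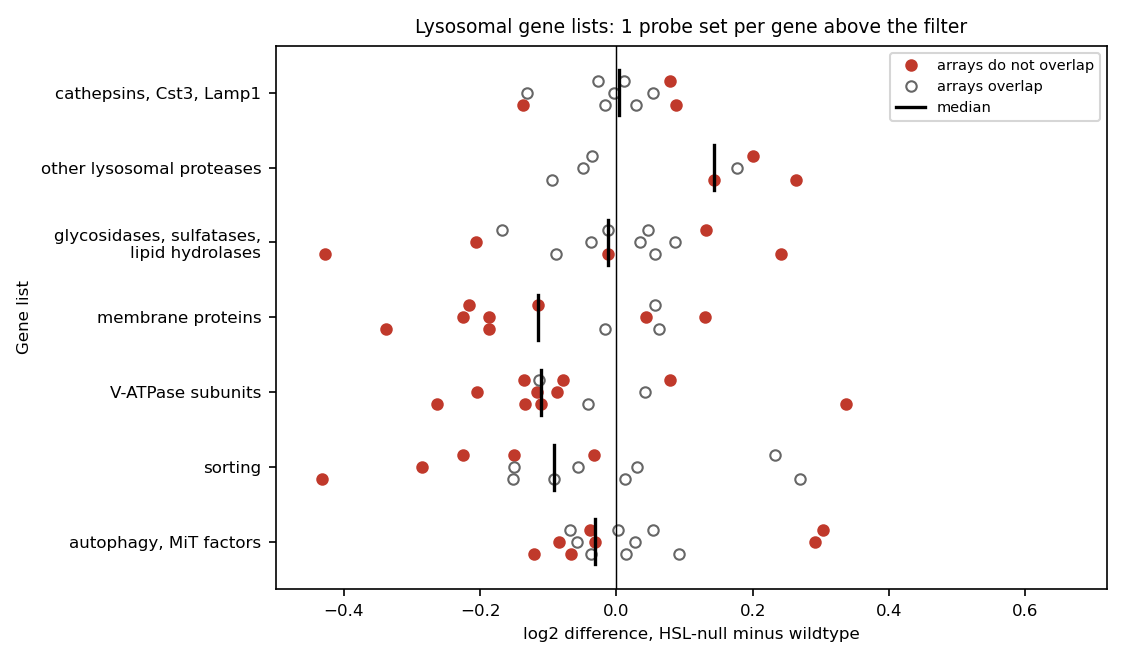
Log2 difference, HSL-null minus wildtype, of each gene above the filter in 7 lysosomal lists, with filled points where the arrays of the genotypes do not overlap, open points where they do and a black line at each median. The cathepsins with Cst3 and Lamp1 centre on 0.0039, while V-ATPase subunits and membrane proteins centre near -0.11.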

How the data were processed

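The authors deposited linear intensities for 12488 probe sets on 4 arrays, scaled so that every array has a mean close to 100 with 2% trimmed from each end, as tested on the values. The sources used here name no software and no background correction. Names came from the platform annotation (10855 with 1 symbol, 396 with several, 1237 with none), and 10839 were matched to RefSeq by gene ID. Values were floored at the 25th percentile (5.7) and log2 transformed, and the 66 control probe sets were left out. A probe set passed the filter when its mean intensity over the arrays reached the table's median (27.7), and detection calls were not used. Precision is limited by the number of arrays, and duplicates measure array error, not animals. Differences are means of 2 arrays per genotype, with SEs from the duplicates. Alternatives covered scaling, floor, filter, size threshold, each array left out and the replicate number as a block. Every member probe set is reported. In each other list the separated genes, or else the 2 brightest, are named. Markers under the floor on all arrays are named too, and other genes were picked for their values, as said beside them. The members and lists were chosen with earlier results of these data known. Computations used Python 3.11.15, numpy 2.4.6, pandas 2.3.3, matplotlib 3.10.9, and limma 3.58.1 in R 4.3.3.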

Additional observations from a re-analysis of the deposited data

How the results depend on the processing

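Under the 3 other scalings, 44 of 48 log2 differences of single member probe sets moved by less than the SD of their duplicates and 4 by more, and none of those with arrays that did not overlap changed sign. Leaving out an array or pairing by number cannot move a difference by that SD, so those settings are left out of this count. The count of separated members was 0 under each setting tried but the lower size threshold, which gave 1 (Ctsb 92256_at). The share of all probe sets at that lower threshold is not given here, and the 0.451% above belongs to 1.5-fold. The count lower without overlap was 3, 5 after quantile normalization, 1 with the filter at the 75th percentile (7 probe sets left), and 4 to 7 without one array, where fewer pairs have to go the same way. The count higher without overlap was 2, 0 with median centring, 1 after quantile normalization, 1 after cyclic loess, 1 with the filter at the 75th percentile, and 3 to 6 without one array. Over all 6208 probe sets, 20.7% were lower and 20.1% higher after quantile normalization, and 20.4% and 20.5% after cyclic loess. With median centring they were 27.8% and 13.4%, and without one array 35.3% to 36.5% and 32.8% to 35.4%. No such share is given for the filter at the 75th percentile. The members' median of -0.0079 was -0.044 with median centring, which moved the median of all probe sets to -0.038. The replicate number is shared by technical duplicates only. As a replicate block it left the members' median at -0.0079 and the counts at 3 and 2.

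For the lists, these alternatives were chosen after seeing the data. With median centring the V-ATPase median was -0.15 and that of autophagy -0.068. Without one array the medians ran from 0.080 to 0.15 for other proteases, -0.052 to 0.022 for glycosidases, sulfatases and lipid hydrolases, -0.14 to -0.085 for membrane proteins, -0.10 to -0.069 for V-ATPase, -0.12 to -0.028 for sorting and -0.036 to -0.0059 for autophagy. The cause of these shifts was not tested. With 1 pool per genotype, differences between animals are outside what these arrays measure.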
